A study of Homo sapiens with 18 samples.

Results

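The receptors and transcription factors that are used to tell breast tumor subtypes apart were examined in 3 triple-negative breast cancer (TNBC) cell lines: ESR1, PGR, GATA3, FOXA1, XBP1, TP63, FOXC1, ELF5 and SOX10. These 9 genes were picked by symbol out of 19289 measured, and every probe with 1 of these symbols was taken, which gave 12 of 21111 probes. ESR1 was read by 2 probes, PGR by 3 and each of the other genes by 1. BT549, Hs578T and SUM149PT are established lines grown from human breast tumors; in the study's description BT549 and Hs578T are mesenchymal-like and SUM149PT is basal-like. Cells in 96-well plates received 50 nM siRNA with the transfection reagent INTERFERin, either a pool against ASAP1 (siASAP1) or the control siCtrl, which the methods describe as a mix of siRNAs against kinases. They were collected after 72 h. Each of the 6 groups of line and siRNA had 3 libraries, 18 in all, so every siCtrl group was itself transfected and no untreated cells were measured. RNA was read by TempO-Seq, in which a pair of detector oligonucleotides anneals side by side to a transcript, is ligated and is counted by sequencing. Values below are normalized read counts, meaning reads divided by a size factor of the library, unless they are called log2 values.

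ESR1 and PGR encode the estrogen and progesterone receptors, and TNBC is defined in the clinic by low or no protein of both and of HER2. In the breast, FOXA1 opens chromatin for the estrogen receptor, GATA3 holds luminal cells in their differentiated state, and XBP1, a factor of the unfolded protein response, is high in estrogen receptor-positive tumors. TP63 keeps the basal layer of stratified epithelium, FOXC1 and SOX10 are marks of basal-like and neural crest-like tumors, and ELF5 drives the alveolar luminal progenitor.

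The libraries held between 4.63 and 12.5 M reads (median 6.63 M), and a probe without a read in any of them, as 4 of the 12 probes were, can be limited to 0.0240 reads per M reads by counting error alone. ASAP1, the targeted gene, had lower means after siASAP1 in each line, with log2 differences of -0.75 (BT549), -0.98 (Hs578T) and -1.16 (SUM149PT). None of these passed the test over all probes within a line (adjusted p = 0.65, 0.91 and 0.66, limma). No other probe passed within a line either (0 of 9666, 9500 and 10078). ASAP1 did not overlap between siRNAs in BT549 and Hs578T, beside 13.9% and 12.1% of all probes, and overlapped in SUM149PT. Over the 3 lines the difference was -0.96 (adjusted p = 0.127, limma). The study reported knockdown of ASAP1 by RT-qPCR in these lines. The SUM149PT difference was -2.04 without its second siCtrl library (adjusted p = 0.0640) and the BT549 difference -0.41 without its first siASAP1 library (adjusted p = 0.351). The ASAP1 level of a single library went against its label. The library labelled SUM149PT siCtrl replicate 2 had 189 normalized counts of ASAP1, beside 1087 and 1314 in the other SUM149PT siCtrl libraries and 184 to 468 after siASAP1. Over all probes its log2 values correlated less with its own group (r = 0.759) than with the SUM149PT siASAP1 libraries (r = 0.833). In the same way the first BT549 siASAP1 library correlated less with its own group (r = 0.856) than with BT549 siCtrl (r = 0.929), although its ASAP1 count of 367 was the lowest of BT549. Of the other 16 libraries 5 also correlated less with their own group, by a smaller margin, the lowest of them at 0.826 against 0.839 (SUM149PT siASAP1 replicate 2) and the others, all of Hs578T, at 0.889 to 0.929 against 0.906 to 0.937. Values without the library labelled SUM149PT siCtrl replicate 2 or the first BT549 siASAP1 library stand beside the results for the 9 genes. The marker levels separated the lines by their description. Summed over 14 epithelial probes, the level was 34359 to 61688 in SUM149PT, 114 to 406 in BT549 and 162 to 489 in Hs578T, and CDH1 (E-cadherin) had no read in the siCtrl libraries of either mesenchymal-like line. Summed over 21 mesenchymal probes, it was 6355 to 13106 in SUM149PT, 72351 to 124372 in BT549 and 211048 to 324380 in Hs578T.

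FOXA1, XBP1, ESR1 and TP63, 4 of the 9 genes, had enough reads to be tested between lines, so sequence before a start site of each is shown. The windows are the 250 bases upstream of a RefSeq start on GRCh38.p14, read 5′ to 3′ on the gene's strand. From the end of the FOXA1 window 99 exonic bases were left off, and 28 were kept at the end of the XBP1 window. Of the 9 genes, 8 had 1 or more windows in the table used here, 21 windows in all. Capitals mark a match to a motif searched on both strands, namely the endoplasmic reticulum stress element (CCAAT followed after 9 bases by CCACG), the palindromic estrogen response element (GGTCA followed after 3 bases by TGACC), a forkhead motif (TGTTTAC or TGTTTGC), or a GATA motif (AGATAA with A or T first and A or G last).
XBP1, chr22:28800570-28800819, minus strand: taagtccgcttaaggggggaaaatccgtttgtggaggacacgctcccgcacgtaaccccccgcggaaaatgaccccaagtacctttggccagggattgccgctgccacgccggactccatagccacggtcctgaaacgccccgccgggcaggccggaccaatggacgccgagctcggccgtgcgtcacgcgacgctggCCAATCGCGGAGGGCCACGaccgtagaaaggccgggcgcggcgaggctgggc
FOXA1, chr14:37595349-37595499, minus strand: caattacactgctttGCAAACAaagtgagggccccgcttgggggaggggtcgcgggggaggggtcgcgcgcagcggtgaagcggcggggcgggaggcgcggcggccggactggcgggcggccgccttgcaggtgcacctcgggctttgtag
ESR1, chr6:151806946-151807195, plus strand: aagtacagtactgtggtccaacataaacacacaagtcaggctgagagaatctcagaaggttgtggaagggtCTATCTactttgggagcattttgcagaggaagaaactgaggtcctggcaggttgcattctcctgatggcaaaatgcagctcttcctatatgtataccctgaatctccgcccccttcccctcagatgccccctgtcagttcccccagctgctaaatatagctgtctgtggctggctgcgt
TP63, chr3:189631139-189631388, plus strand: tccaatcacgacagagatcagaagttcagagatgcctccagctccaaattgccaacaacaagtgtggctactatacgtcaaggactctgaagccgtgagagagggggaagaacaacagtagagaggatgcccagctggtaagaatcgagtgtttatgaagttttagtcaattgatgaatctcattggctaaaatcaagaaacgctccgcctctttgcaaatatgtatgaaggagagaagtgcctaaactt

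The XBP1 window held an endoplasmic reticulum stress element, 52 bases before the start, which 26 of 34943 windows of all genes (0.0744%) also held. The FOXA1 window held a forkhead motif on the reverse strand, 235 bases before the start (6.10% of all windows), and the ESR1 window, at 1 of several ESR1 starts, held a GATA motif on the reverse strand 179 bases before it (22.4% of all windows). The windows at the other ESR1 starts, not shown, held no motif of the marked kinds, and the XBP1 window not shown held no stress element. The TP63 window, at 1 of several TP63 starts, held none of these motifs, and no other TP63 start had a window here. The palindromic estrogen response element was in 0 of the 21 windows and in 0.0401% of all windows, and its core, GGTCA, was in 10 of 21 windows beside 32.6% of all. Windows of a gene can overlap and are not independent. The PGR matches to GGTCA, 166 and 180 bases before their starts, are the same site counted in overlapping windows. A match is a string of letters and no measure of binding. On GRCh38 with the GENCODE release 29 annotation the 4 genes are protein coding and lie on chromosome 22 from 28794555 to 28800597 (XBP1), chromosome 14 from 37589984 to 37596059 (FOXA1), chromosome 6 from 151656691 to 152129619 (ESR1) and chromosome 3 from 189631416 to 189897279 (TP63). The stretch of transcript that each probe reads was not determined here. TP63 has 8 annotated transcript starts, and its probe was not assigned to the long or the short amino-terminal form.

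ESR1 was the receptor with reads. The probe ESR1_12234 was read in SUM149PT and Hs578T, and the other, ESR1_2235, had no read in the 18 libraries. In SUM149PT the read probe had 24.3, 54.7 and 40.0 normalized counts after siCtrl (39.6 ± 15.2, mean ± SD, n = 3), the second value from the library whose ASAP1 level went against its label. Hs578T had 12.7, 13.1 and 7.88 (11.2 ± 2.88, n = 3), and BT549 had 0 reads in all 3. The siCtrl groups therefore did not overlap, in the order SUM149PT, Hs578T, BT549. ESR1 was higher in SUM149PT than in BT549 by 5.27 log2 units (SE 0.60, 95% confidence interval 3.93 to 6.62, adjusted p = 0.000174, limma), and against the limit of 3 reads over the BT549 group this was at least 50.4-fold. BT549 was also below Hs578T (log2 difference -3.58, SE 0.60, adjusted p = 0.00275), and Hs578T was at least 14.2-fold higher by the same limit. The ratio of SUM149PT to Hs578T was 3.54, with a log2 difference of 1.69 (0.35 to 3.04) that did not pass the test (adjusted p = 0.0776). Without the library labelled SUM149PT siCtrl replicate 2 the differences of SUM149PT were 5.01 (adjusted p = 0.000254) from BT549 and 1.43 (adjusted p = 0.0880) from Hs578T. In RNA from whole wells, fewer cells that express a gene and less RNA per cell cannot be told apart.

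PGR, itself an estrogen receptor target, was at the limit of detection. Of its 3 probes, PGR_24005 and PGR_28384 had no read in any library, and PGR_5102 had 4 reads, or 3.38 normalized counts, in the first Hs578T siCtrl library and none in the other 17. The exact permutation p of PGR_5102 was 1 in each comparison of lines or siRNAs, and a difference of PGR was not detectable at this depth.

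FOXA1 was read in SUM149PT and Hs578T and hardly at all in BT549. SUM149PT siCtrl had 134, 30.1 and 319.7 normalized counts (161 ± 147, n = 3), the lowest of them in the library labelled siCtrl replicate 2. Hs578T siCtrl had 44.7, 53.0 and 44.3 (47.4 ± 4.91, n = 3). BT549 siCtrl had 6.24, 3.77 and 0 (3.34 ± 3.14, n = 3). All SUM149PT and Hs578T libraries thus lay above those of BT549, while the SUM149PT range enclosed that of Hs578T. The ratio to BT549 was 48.4 for SUM149PT (log2 difference 5.08, SE 0.97, interval 2.92 to 7.25, adjusted p = 0.00448) and 14.2 for Hs578T (BT549 minus Hs578T -3.89 on the log2 scale, SE 0.97, adjusted p = 0.0242). The ratio of SUM149PT to BT549 was 24.6 without the third SUM149PT siCtrl library and 85.6 without the first of BT549, and that of Hs578T to BT549 was 25.1 without the latter. SUM149PT and Hs578T did not differ beyond their spread (log2 difference 1.20, adjusted p = 0.432). Without the library labelled SUM149PT siCtrl replicate 2 SUM149PT was still above BT549 (adjusted p = 0.000978), and its log2 difference from Hs578T was 2.11 (adjusted p = 0.0941). The call between Hs578T and BT549 was lost when any of their siCtrl libraries but the first of BT549 was left out (adjusted p = 0.0554 to 0.0939) and with read-based precision weights (adjusted p = 0.0529).

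GATA3 was read in SUM149PT only. After siCtrl it had 61 reads, or 55.6 normalized counts, in the library labelled replicate 2 and no read in the other two libraries. After siASAP1 it had 15.9, 6.41 and 10.5 normalized counts (10.9 ± 4.75, n = 3) from 12, 5 and 8 reads. The 12 libraries of BT549 and Hs578T had no GATA3 read. The siCtrl group thus rested on the library whose ASAP1 count and overall profile were nearer to the siASAP1 group. Against the limit of 3 reads over a group, GATA3 after siASAP1 was at least 11.95-fold higher in SUM149PT than in BT549 and at least 12.9-fold higher than in Hs578T, with exact permutation p = 0.1 for each, the smallest two-sided value that 3 libraries against 3 allow. GATA3 did not reach the mean of 10 normalized counts required for the test across probes in siCtrl libraries.

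XBP1 was read in all 18 libraries. After siCtrl Hs578T had 89.4, 100.4 and 75.9 normalized counts (88.6 ± 12.3, n = 3). SUM149PT had 71.5, 20.0 and 75.1 (55.6 ± 30.8, n = 3), and BT549 had 49.9, 14.5 and 34.4 (32.9 ± 17.8, n = 3). Hs578T lay above both other lines without overlap, by 75.9 against 75.1 in the nearest pair with SUM149PT, and those other lines overlapped each other. None of the differences passed the test, with ratios of 2.69 for Hs578T to BT549 (adjusted p = 0.172), 1.59 for Hs578T to SUM149PT (adjusted p = 0.405) and 1.69 for SUM149PT to BT549 (adjusted p = 0.544). The lowest SUM149PT value was again that of the library labelled siCtrl replicate 2, without which the log2 difference of SUM149PT from Hs578T was -0.26 (adjusted p = 0.757). In the siASAP1 libraries XBP1 was 5.73-fold higher in Hs578T than in BT549, a difference that passed the test (BT549 minus Hs578T -2.59 on the log2 scale, adjusted p = 0.0295).

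TP63 was highest in SUM149PT and lowest in Hs578T. SUM149PT siCtrl had 140.2, 244 and 117 normalized counts (167 ± 67.8, n = 3), the highest in the library labelled replicate 2. BT549 siCtrl had 37.4, 59.7 and 61.7 (53.0 ± 13.5, n = 3), and Hs578T siCtrl had 4.22, 0 and 16.7 (6.99 ± 8.71, n = 3). The 3 lines did not overlap. TP63 was 23.9-fold higher in SUM149PT than in Hs578T (log2 difference 5.14, SE 0.93, interval 3.06 to 7.22, adjusted p = 0.00302), and 79.2-fold higher without the third Hs578T siCtrl library, which had 16.7. BT549 was 7.58-fold above Hs578T (log2 difference 3.54, SE 0.93, adjusted p = 0.0308), a call that was lost when the third BT549 siCtrl library, among others, was left out (adjusted p up to 0.113) and that held without the third Hs578T library (25.1-fold, adjusted p = 0.00698). SUM149PT was 3.15-fold above BT549, a log2 difference of 1.60 with an interval from -0.48 to 3.68 (adjusted p = 0.291). Without the library labelled SUM149PT siCtrl replicate 2, TP63 was higher in SUM149PT than in Hs578T by 4.83 (adjusted p = 0.00793) and than in BT549 by 1.29 (adjusted p = 0.367).

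The other basal and progenitor factors were near or below detection. FOXC1 was read mainly in BT549, with 4.99, 3.14 and 23.9 normalized counts after siCtrl (10.7 ± 11.5, n = 3) and 0.889, 4.72 and 6.39 after siASAP1. It had no read in Hs578T and 2 reads in SUM149PT, both in the first siCtrl library. FOXC1 in BT549 was at least 12.2-fold higher than in Hs578T after siCtrl and at least 4.73-fold higher after siASAP1. The siCtrl bound rested on the third BT549 library and was at least 4.64-fold without it. FOXC1 in BT549 did not overlap with SUM149PT after either siRNA (exact permutation p = 0.1 each, the smallest possible), and was at least 3.06-fold higher after siASAP1, while the 2 reads of SUM149PT siCtrl were too few for a fold. With the filter on low counts lifted, its difference between BT549 and Hs578T after siCtrl was 3.09 log2 units (SE 0.83, adjusted p = 0.0420). ELF5 had 2 reads in 1 BT549 library, 8 in 1 Hs578T library and 1 in 1 SUM149PT library, each after siASAP1. SOX10 had no read in the 18 libraries.

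**Figure D1:**
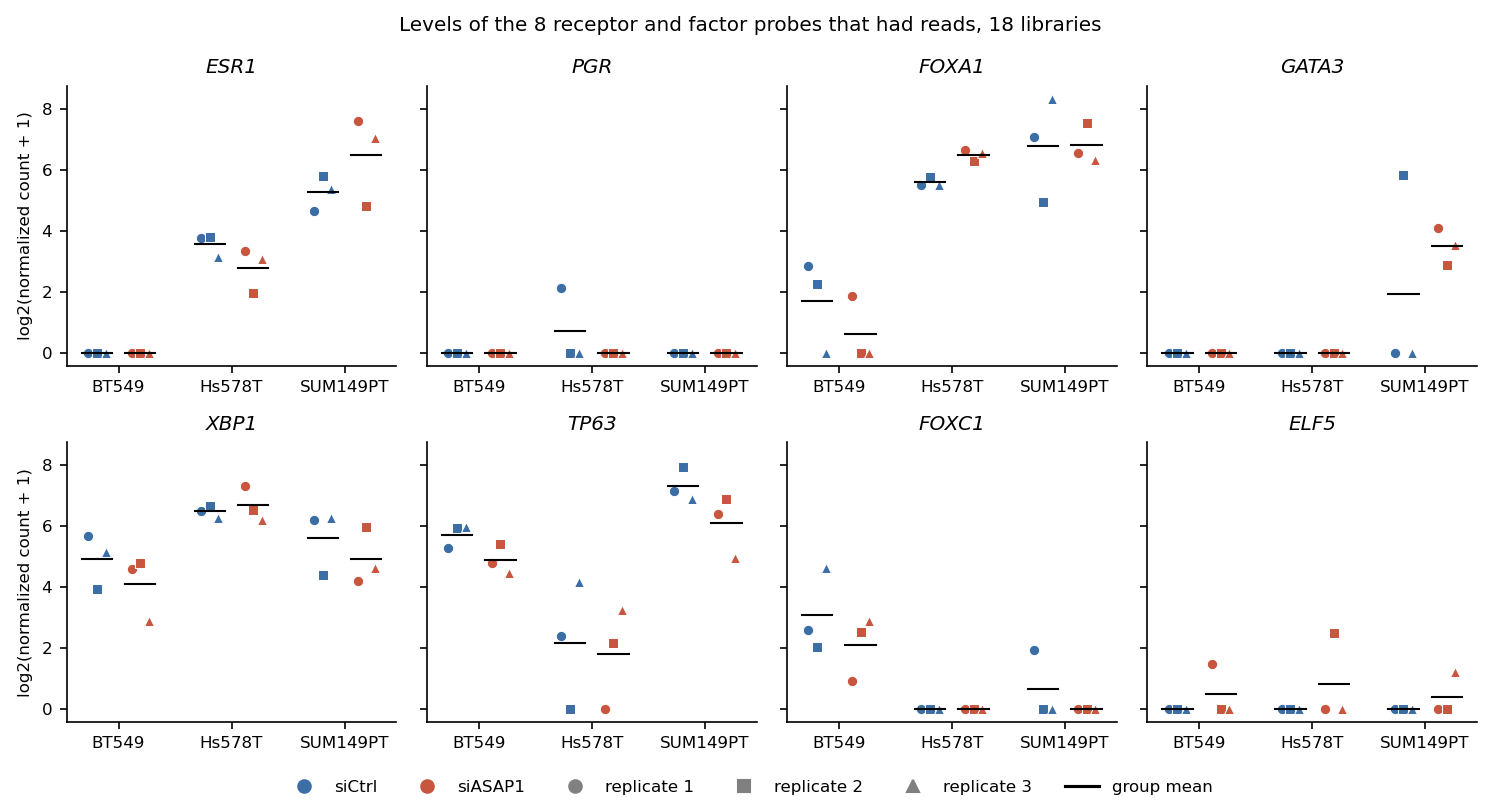
Normalized counts of the 8 probes of the receptors and factors that had reads, on the log2(normalized count + 1) scale of the vertical axis, with a panel for each gene, a point for each of 18 libraries, and color for siCtrl or siASAP1. BT549 sits at 0 for ESR1 in all 6 libraries, TP63 has its highest siCtrl values in SUM149PT (117 to 244 normalized counts), and GATA3 is above 0 in SUM149PT alone.

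Of the 12 probes, 4 reached a mean of 10 normalized counts over the 9 siCtrl libraries and entered the test with 10255 probes in all. A probe could reach that mean through the line in which it was high, so the counts that follow describe the genes and give no support to a difference between them and other probes. Between SUM149PT and BT549, 2 of the 4 passed, both higher in SUM149PT, beside 18.2% of all probes called, 9.4% higher and 8.8% lower, and 3 of the 4 did not overlap, beside 32.8%. Between SUM149PT and Hs578T, 1 of 4 passed, higher in SUM149PT (20.2% of all probes, 9.68% higher and 10.6% lower) and 3 did not overlap (35.4%). Between BT549 and Hs578T, 3 of 4 passed (13.9%) and all 4 did not overlap (36.7%). In siASAP1 libraries the differences that passed were those of ESR1 and FOXA1 between SUM149PT and BT549 (6.47 and 6.18 log2 units, adjusted p = 0.000306 and 0.000121), beside 22.3% of all probes. ESR1 and TP63 passed between SUM149PT and Hs578T (3.68 and 4.28 log2 units, adjusted p = 0.00841 and 0.00526), beside 28.4%. FOXA1, ESR1, TP63 and XBP1 all passed between BT549 and Hs578T (adjusted p = 0.000248, 0.0414, 0.0360 and 0.0295), beside 19.9%, with TP63 higher in BT549 and the others higher in Hs578T. Without the first BT549 siASAP1 library, the calls of ESR1 and TP63 between BT549 and Hs578T were lost (adjusted p = 0.0695 and 0.0629) and those of FOXA1 and XBP1 held (adjusted p = 0.000223 and 0.0348), as did ESR1 and FOXA1 between SUM149PT and BT549 (adjusted p = 0.00137 and 0.000103). The ESR1 difference between SUM149PT and Hs578T, 17.9-fold after siASAP1 and 3.54-fold after siCtrl, passed in the siASAP1 libraries alone, and the change in that difference did not pass the test of the interaction of line and siRNA (adjusted p = 0.960).

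**Figure D2:**
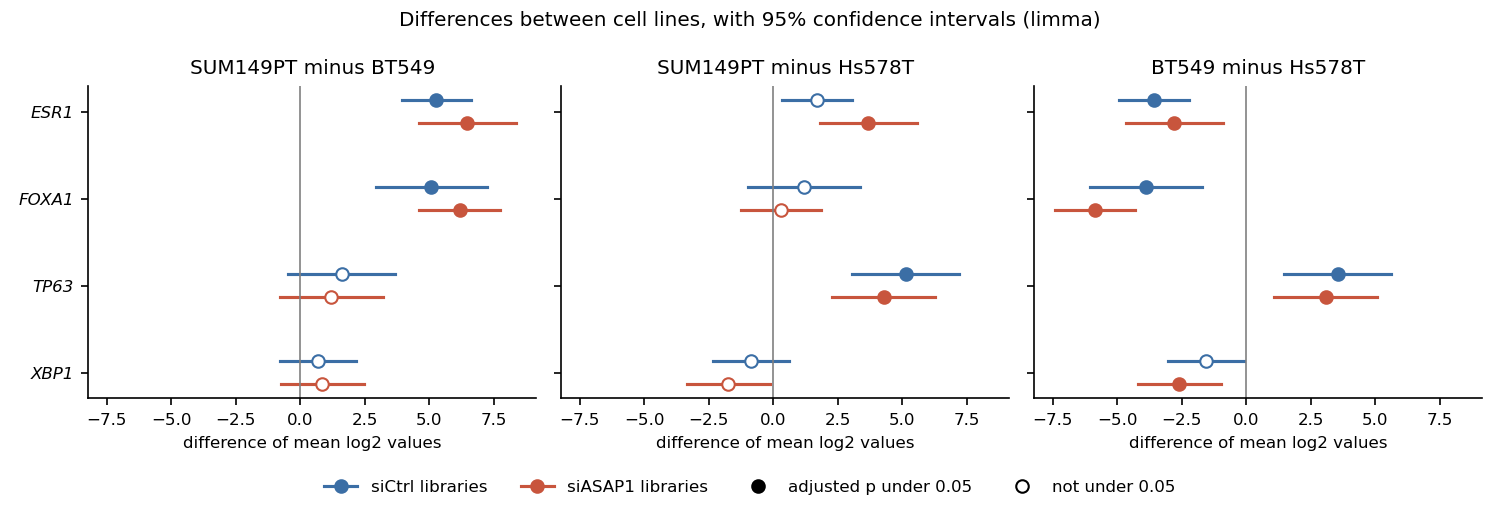
Differences of mean log2 values between pairs of cell lines (horizontal axis) for the 4 tested genes, with 95% confidence intervals from limma, for siCtrl and siASAP1 libraries, filled where the adjusted p was under 0.05. The intervals of ESR1 and FOXA1 between SUM149PT and BT549 lie above 0 (5.27 and 5.08 log2 units after siCtrl), and that of TP63 between the same lines crosses 0 after siCtrl (-0.48 to 3.68).

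The genes that these receptors and factors are known to regulate, and their relatives, were described by lists set beside the median of all tested probes, which was -0.04 log2 units for SUM149PT against BT549 and -0.0019 for SUM149PT against Hs578T. Over all tested probes 9.4% were higher and 8.8% lower in SUM149PT than in BT549, and 9.68% were higher and 10.6% lower than in Hs578T, and the counts of each list below stand beside these shares. A probe of a list could also reach the filter through the line in which it was high. The counts therefore describe the lists and give no support to a difference between a list and other probes. Estrogen receptor targets were called in both directions. Of 47 probes for 27 genes, 11 had no read and 14 were tested, of which 3 were higher and 1 lower in SUM149PT than in BT549 (median 0.38), and 3 were higher and 2 lower than in Hs578T (median 0.41). The classical targets TFF1 and GREB1 were near 0 in SUM149PT after siCtrl, with a mean of 0.533 normalized counts for 1 TFF1 probe and no read for the other TFF1 probe or for any GREB1 probe. AGR2, a disulfide isomerase of the secretory pathway, had 72.9, 111 and 55.9 normalized counts in SUM149PT siCtrl and 0.816 in 1 Hs578T siCtrl library, and was at least 102-fold above BT549, where it had no read. PRLR, the prolactin receptor, was 20.2-fold above BT549 and 21.1-fold above Hs578T (adjusted p = 0.00562 and 0.00278). IL6ST, the shared receptor chain of the interleukin-6 family, was 5.60-fold lower than in BT549 and 6.69-fold lower than in Hs578T (adjusted p = 0.00418 and 0.00241). It had 78.7, 329.8 and 108.7 in SUM149PT siCtrl, and without the second of these, the library labelled replicate 2, it was 10.3-fold and 12.3-fold lower. PRLR against Hs578T ranged from 14.1-fold to 33.1-fold with the third or the second Hs578T siCtrl library left out. The other targets called, named after their values were seen, were NRIP1, a nuclear receptor corepressor, higher than in BT549 by 5.97 log2 units, BCL2, an inhibitor of apoptosis, higher than in Hs578T by 4.53, and CA12, a carbonic anhydrase, lower than in Hs578T (log2 difference -6.85).

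Among 17 probes of other luminal factors, 6 were tested, and GRHL2 set SUM149PT apart from both lines. GRHL2, which holds epithelial junction genes active, had 93.0, 129 and 65.5 normalized counts in SUM149PT siCtrl and no read in siCtrl libraries of BT549 or Hs578T, at least 122-fold and 110-fold higher. TFAP2C and TFAP2A, AP-2 factors of breast epithelium that are named here after their values were seen, were higher in SUM149PT than in Hs578T by 9.71 and 1.48 log2 units, and ZNF703, a transcriptional repressor of luminal tumors, was lower (log2 difference -3.78, and -3.23 without the library labelled siCtrl replicate 2, adjusted p = 0.0476). In all, 1 probe was higher and 1 lower than in BT549 (median 0.39), and 3 were higher and 2 lower than in Hs578T (median 1.74).

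Of 15 probes for other receptors used in subtyping, 9 were tested, with 3 higher and 2 lower in SUM149PT than in BT549 (median 0.02) and 2 higher and 1 lower than in Hs578T (median 0.51). ERBB3, a receptor that pairs with HER2, had 47.2, 51.0 and 19.2 in SUM149PT siCtrl, at least 49.8-fold above BT549 and 12.9-fold above Hs578T. The calls against BT549 also held VDR, the vitamin D receptor (4.19 log2 units higher, or 3.60 without the library labelled SUM149PT siCtrl replicate 2, adjusted p = 0.0313), and NR3C1, the glucocorticoid receptor (log2 difference -1.82), which are named after their values were seen. Of 25 probes for relatives of the 9 genes in the estrogen receptor, GATA, FOX, SOX, ELF and p53 families, 7 were tested. Named after their values were seen, GATA2 and SOX9 were higher in SUM149PT than in BT549 by 2.82 and 3.23 log2 units, and GATA6 and FOXC2 were lower in SUM149PT than in Hs578T (log2 differences -2.19 and -5.84). The call of GATA2 was lost with voom (2.72, adjusted p = 0.0957), and that of GATA6 without the library labelled SUM149PT siCtrl replicate 2 (-1.68, adjusted p = 0.0583), where FOXC2 was at -6.74.

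The basal program linked to p63, made up of keratins, desmosomal and hemidesmosomal genes and laminins, was higher in SUM149PT. Of its 26 probes for 23 genes 19 were tested, of which 13 were higher and 0 lower than in BT549 (median 5.18), beside 9.4% of all probes higher, and 12 were higher and 0 lower than in Hs578T, beside 9.68% (median 5.54, or 6.05 with probes unread in a line set at their bound). Among the 19, 5 had no read in the siCtrl libraries of a line in the comparison with BT549, and 7 in that with Hs578T. KRT6A, a keratin of basal and activated epithelium, had 2547, 729 and 3347 normalized counts in SUM149PT siCtrl and no read in the 12 libraries of the other lines, at least 2809-fold above BT549. KRT17, also a basal keratin, had 1509, 647 and 1941 in SUM149PT siCtrl beside a single read in the siCtrl libraries of the other lines. BT549, which had TP63 in each library, differed from Hs578T by 1 probe of the program higher and 1 lower, beside 13.9% of all probes called, with a median of 0 beside 0.01 for all probes. Of the 19 probes, 7 had no read in the siCtrl libraries of BT549, of Hs578T or of both. Probes unread in both lines, such as KRT6A, passed the filter through SUM149PT and had a difference of 0 for that reason. This median therefore says little about TP63 and the program in BT549. Without the library labelled SUM149PT siCtrl replicate 2, 13 probes of the program were higher and 1 lower in SUM149PT in each of its comparisons, beside 34.2% of all probes called against BT549 and 31.7% against Hs578T. Of the 14 epithelial probes, whose list shares no gene with the program, 12 were tested. Of these, 11 were higher in SUM149PT than in BT549 (median 6.98) and 12 higher than in Hs578T (median 6.83), beside 9.4% and 9.68% of all probes, led by EPCAM, an epithelial adhesion molecule, ST14, a membrane serine protease, and CLDN7, a tight junction claudin. Among the 12, 7 had no read in the siCtrl libraries of a line in the comparison with BT549, and 5 in that with Hs578T. EPCAM had a mean of 29532 normalized counts in SUM149PT siCtrl, 1.72 in BT549 and 19.0 in Hs578T. Of 20 mesenchymal probes tested, 15 were lower and 1 higher than in BT549 (median -3.07) and 19 lower than in Hs578T (median -5.86), beside 8.8% and 10.6% of all probes lower. Their leading genes were COL1A2, SPARC and COL3A1, which encode collagens and a matrix glycoprotein, with COL1A2 at 3.14 in SUM149PT siCtrl beside 11477 in BT549 and 30836 in Hs578T. The part of TP63 in the levels of the basal program, and that of epithelial identity, was not tested.

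Basal-like tumor genes other than these could hardly be assessed. Of 16 probes for 14 genes 1 reached the filter, and it was called in neither comparison by limma, beside 18.2% and 20.2% of all probes (0 at an unadjusted p under 0.05, and 0 with voom weights on the recovered reads). The secretory genes that XBP1 activates were well read, with 17 of 19 probes tested, and 0 were called in either comparison of SUM149PT by limma or by voom, although 2 against BT549 and 1 against Hs578T had an unadjusted p under 0.05 by each of these tools, beside 30.1% and 33% of all probes by limma. Their medians were -0.47 against BT549 and -0.40 against Hs578T. Both depended on the library labelled SUM149PT siCtrl replicate 2, without which 16 of the secretory probes were tested. Of these 16, 1 was higher and 3 were lower than in BT549 (median 0.04), beside 34.2% of all probes called. Against Hs578T 0 were higher and 2 lower (median -0.02), beside 31.7%. HSPA5, the chaperone BiP of the endoplasmic reticulum, had mean siCtrl values of 5557 ± 2861 in SUM149PT, 7915 ± 2139 in BT549 and 6498 ± 701 in Hs578T (n = 3 each), which overlap.

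**Figure D3:**
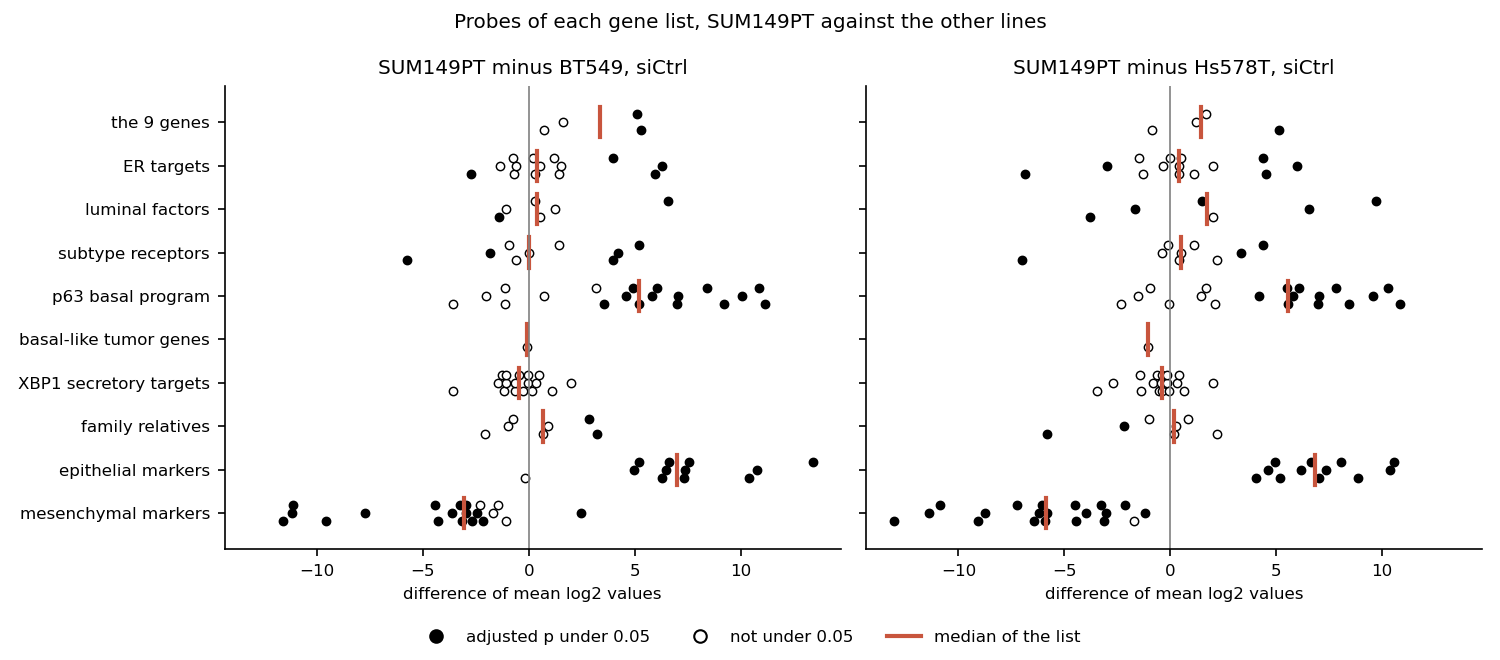
Differences of mean log2 values between SUM149PT and each other line in siCtrl libraries (horizontal axis) for the tested probes of each gene list, a point for each probe, filled where the adjusted p was under 0.05, and a bar at the median. Probes of the p63 basal program and the epithelial markers lie mostly to the right (medians 5.18 and 6.98 against BT549), mesenchymal markers to the left (median -3.07), and estrogen receptor and XBP1 targets on both sides of 0 (medians 0.38 and -0.47).

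Transfection with siASAP1 was then compared with siCtrl within each line. No receptor or factor passed the test, by limma or by voom, in any line (at an unadjusted p under 0.05, BT549 had 0, Hs578T 1 and SUM149PT 0 by each tool, beside 7.8%, 5.28% and 10.2% of all probes by limma). By limma no probe of any other gene passed within a line either. The lack of a call therefore does not set these genes apart from other probes. In BT549 TP63 had 26.7, 41.5 and 21.0 normalized counts after siASAP1 (29.7 ± 10.6, n = 3), overlapping siCtrl (log2 difference -0.83, SE 0.56, adjusted p = 0.688). BT549 FOXA1 had 2.67, 0 and 0 after siASAP1, and ESR1 stayed at 0 reads. BT549 XBP1 had 23.1, 26.4 and 6.39 (log2 difference -0.84, adjusted p = 0.740). Both tested probes thus had lower means after siASAP1, within the spread between libraries. Without the first siASAP1 library the differences were -0.79 for TP63 (adjusted p = 0.391) and -1.09 for XBP1 (adjusted p = 0.438). The limits used in the study (absolute log2 difference over 1 with an unadjusted p below 0.05) were met by 0 of the 2 probes beside 6.97% of all probes in BT549.

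In Hs578T FOXA1 had 99.7, 77.5 and 91.7 normalized counts after siASAP1 (89.6 ± 11.3, n = 3), each above all siCtrl libraries, the highest of which had 53.0. The log2 difference was 0.90 (SE 0.37, interval 0.08 to 1.73), with an adjusted p of 0.923 over 9500 probes, and libraries of 12.1% of all probes did not overlap in this line. ESR1 had 9.07, 2.89 and 7.46 after siASAP1 (6.47 ± 3.20), XBP1 had 156, 91.4 and 72.5 (107 ± 44.0), and TP63 had 0, 3.47 and 8.53, all overlapping siCtrl (n = 3 each). Of the 2 probes tested in Hs578T, FOXA1 and XBP1, 0 met the limits of the study, beside 2.78% of all probes.

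In SUM149PT ESR1 had 191, 26.9 and 130.1 normalized counts after siASAP1 (116 ± 82.7, n = 3). Its second library lay within the siCtrl range of 24.3 to 54.7 and the other two lay above it, and the log2 difference of 1.20 had an interval from -0.68 to 3.08 (adjusted p = 0.660). TP63 had 83.3, 118 and 30.2 (77.2 ± 44.2, n = 3), overlapping siCtrl by the margin between 118 and 117 (log2 difference -1.23, interval -2.71 to 0.24, adjusted p = 0.558). FOXA1 had 92.6, 185 and 78.8 (119 ± 57.5) and XBP1 had 17.2, 61.5 and 23.7 (34.1 ± 24.0, n = 3 each), both overlapping siCtrl, with log2 differences of 0.01 and -0.68 (adjusted p = 0.995 and 0.801). GATA3, tested in this line, differed by 1.56 (SE 1.84, adjusted p = 0.802). Without the library labelled siCtrl replicate 2 the differences were 1.46 for ESR1 (adjusted p = 0.317), -0.92 for TP63 (adjusted p = 0.402), -0.90 for FOXA1 (adjusted p = 0.357) and -1.29 for XBP1 (adjusted p = 0.303), and GATA3 fell under the filter. Of 5 probes tested with all libraries, 0 met the limits of the study, beside 9.56% of all probes, and 0 did not overlap, beside 17.3%.

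Over the 3 lines in a single fit, with the line as a covariate, the differences after siASAP1 were -0.81 for TP63 (adjusted p = 0.482), -0.44 for XBP1 (adjusted p = 0.652), 0.14 for ESR1 (adjusted p = 0.918) and -0.05 for FOXA1 (adjusted p = 0.974). None of these 4 passed with limma (0 at an unadjusted p under 0.05) or with voom (1 at an unadjusted p under 0.05), beside 1.74% of all probes called by limma and 15.8% at an unadjusted p under 0.05. The mean of TP63 was lower after siASAP1 in each of the 3 lines, with overlapping libraries in each. The interaction of line and siRNA passed for none of them either (adjusted p = 0.960 to 0.991), beside 0.00955% of all probes, which was 1 probe.

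**Figure D4:**
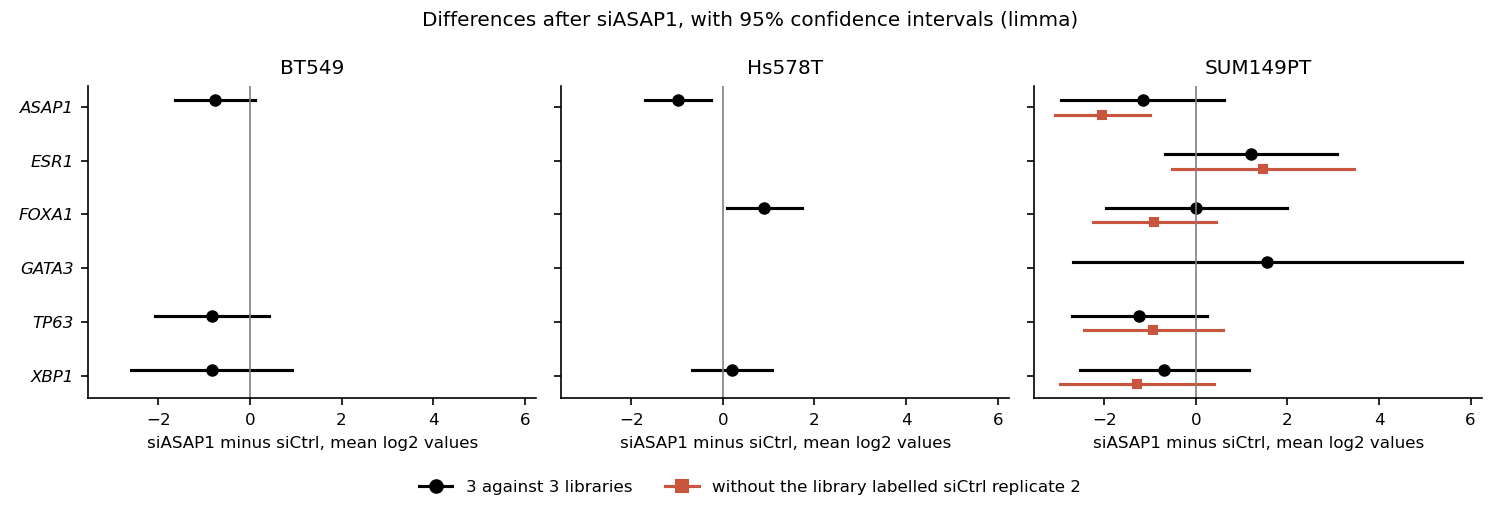
Differences of mean log2 values, siASAP1 minus siCtrl (horizontal axis), in each cell line for ASAP1 and the receptors and factors tested there, with 95% confidence intervals from limma, as circles for all libraries and, in SUM149PT, squares without the library labelled siCtrl replicate 2. Of the circles of the receptors and factors, the interval of FOXA1 in Hs578T lies above 0 (0.08 to 1.73) and the others cross 0.

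The p63 basal program in SUM149PT was set beside TP63 itself after siASAP1. The summed program level was 13133, 9135 and 14759 normalized counts after siCtrl and 23159, 35352 and 28097 after siASAP1, without overlap, and TP63, with means of 167 and 77.2, overlapped. Of 23 tested probes of the program 10 met the limits of the study, all of them higher and with no overlap, beside 5.27% of all probes higher by these limits and 8.87% higher without overlap. The median was 1.54 log2 units beside 0.09 over all probes. By adjusted p, 0 of the 23 passed with limma, beside 0 of all 10078 probes tested in SUM149PT. That count therefore does not set the program apart from other probes. At an unadjusted p under 0.05 limma had 10 of the 23, beside 10.2% of all probes. With voom 0 of the 23 passed (9 at an unadjusted p under 0.05). The library labelled siCtrl replicate 2 had the lowest program level and the highest TP63 of the SUM149PT siCtrl libraries. Without it 11 of 23 probes met the limits, beside 23.4% of all probes in either direction, and the median was 1.20. KRT6A had a mean of 2208 after siCtrl and 7353 after siASAP1, and KRT17 had 1365 and 3818. LAMA3 and LAMB3, which encode laminin chains of the basement membrane, are named after their values were seen. LAMA3 had a mean of 396 after siCtrl and 4263 after siASAP1 (log2 difference 3.47, adjusted p = 0.0668, and 0.0317 without the library labelled siCtrl replicate 2), and LAMB3 differed by 2.20 log2 units. In BT549 and Hs578T the summed level was 1114 to 3871 and 1259 to 2227 over both siRNAs. There 0 of 7 and 0 of 6 tested probes met the limits, beside 6.97% and 2.78% of all probes. With so few probes a count of 0 is near these shares. Over the 3 lines 0 of 22 probes of the program passed with limma (2 at an unadjusted p under 0.05), beside 1.74% and 15.8% of all probes. With voom 5 passed, all higher after siASAP1, a count in which probes read almost only in SUM149PT, KRT6A among them, passed the filter through that line. The share of all probes called by voom is not given here, so the 5 cannot be read as an excess.

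**Figure D5:**
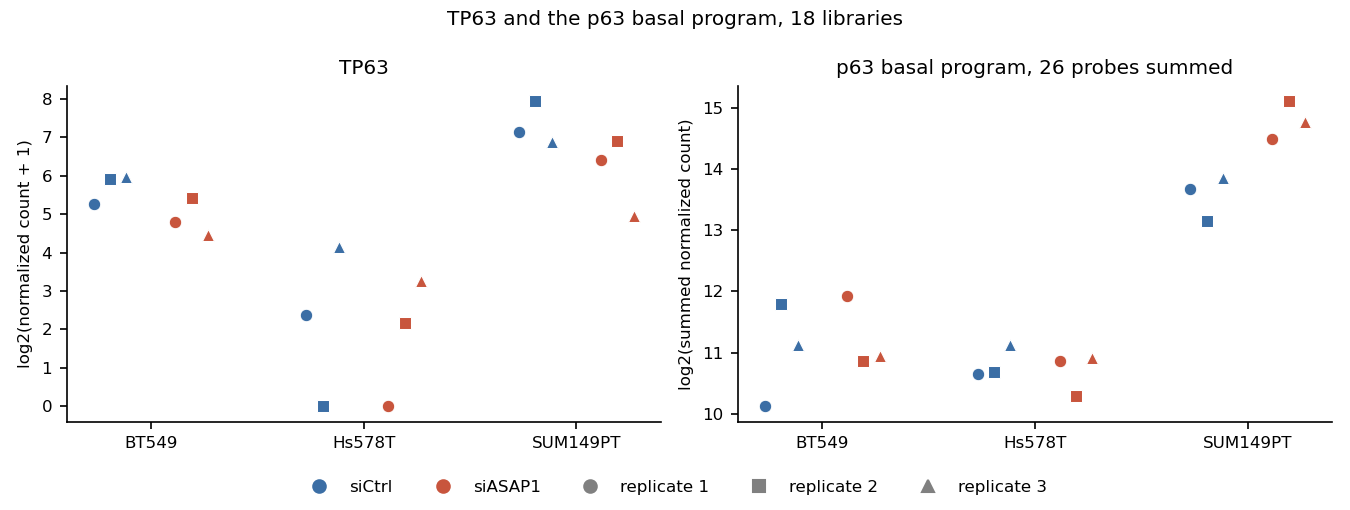
TP63 as log2(normalized count + 1) and the sum of the 26 probes of the p63 basal program as log2(normalized count), with a point for each of 18 libraries, color for the siRNA and shape for the replicate number. In SUM149PT the program sum is higher in each siASAP1 library (23159 to 35352 normalized counts) than in each siCtrl library (9135 to 14759), while TP63 overlaps.

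In the other lists 2 genes passed over the 3 lines after siASAP1. They were 1 of 14 tested probes of the estrogen receptor targets and 1 of 20 mesenchymal probes, beside 1.74% of all probes called. In the remaining lists 0 passed, of 8 luminal factor, 8 receptor, 2 basal-like, 15 XBP1 target, 9 relative and 12 epithelial probes tested. CTSD, the lysosomal protease cathepsin D and an estrogen receptor target, was higher by 1.44 log2 units (SE 0.37, adjusted p = 0.0498). Its means were 28.5 and 132 (siCtrl and siASAP1) in BT549, 66.4 and 179.8 in Hs578T and 75.6 and 169.8 in SUM149PT. The SUM149PT libraries overlapped, with 130.1, 32.8 and 63.9 after siCtrl and 66.1, 353.8 and 89.4 after siASAP1. The higher SUM149PT mean thus rested on the second siASAP1 library. FN1, the matrix protein fibronectin, was higher by 1.04 for the probe FN1_27231 (SE 0.26, adjusted p = 0.0477), a call that was lost with voom weights (0.91, adjusted p = 0.0615), with SUM149PT means of 854 after siCtrl and 4387 after siASAP1. The FN1 means after siCtrl and siASAP1 were 6643 and 9388 in BT549 and 18667 and 23009 in Hs578T. Without the library labelled SUM149PT siCtrl replicate 2 the adjusted p was 0.0769 for CTSD and 0.0746 for FN1, and without the first BT549 siASAP1 library it was 0.0344 and 0.0464.

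Across the 18 libraries the probes whose log2 values ran closest to each tested gene were found by Pearson's r over 10474 probes, as a description in which points of a line share that line. For FOXA1 they were RIPK4 (r = 0.96), CALHM2 (0.96) and TPD52L1 (0.95), and for ESR1 they were NEDD4L (0.96), C15orf52 (0.95) and GALNT3 (0.95). TP63 ran closest to TTC12 (0.92), ARPC5L (0.91) and FAM213A (0.91). XBP1 ran closest to PGRMC1 (0.93), RPLP2 (0.90) and SYNJ2BP-COX16 (0.90).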

How the data were processed

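RNA of BT549, Hs578T and SUM149PT cells was measured by TempO-Seq in 18 libraries, grouped by the line, siRNA and replicate in the labels. The methods call the replicates biological. The submitters' processing notes name bcl2fastq, Bowtie and DESeq2, without versions. The deposited values are on a log2 scale: the authors divided read counts per probe by a size factor of the library, added 1 and took the log2. The genome build is not given in the sources used here. Undoing the log2 gave whole reads for 100% of values (within 0.05 of a whole number), from 4.63 to 12.5 M reads in a library, and the counting limit of 3 reads in a group covers counting error only.

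Differences were tested on the deposited log2 values by limma 3.58.1 (linear fits, then moderated by eBayes with a trend) under R 4.3.3. Probes averaging 10 or more normalized counts in the libraries of a fit were tested, with Benjamini-Hochberg adjustment over all of them and a threshold of 0.05. Lines were compared in the 9 siCtrl libraries, siRNAs within each line, over 3 lines with the line as covariate, and by the interaction. Exact permutation tests were two-sided. Voom weights on the recovered reads, TMM scaling, scaling by library totals, other filters and pseudocounts, all libraries in 1 fit, the replicate block, the siASAP1 libraries and each library left out in turn were alternatives. Counts for the lists, and line differences in siASAP1 libraries, without the libraries that stood apart were added after the data were seen. The numbers of the replicates were not used to pair the libraries in the main fits.

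The genes and lists were chosen with earlier results of these data known. Beside the receptors and factors and ASAP1, the text names from each list up to 3 probes with the largest difference of SUM149PT from both lines in the same direction and without overlap, list genes called over the 3 lines, and the 3 probes nearest to each tested gene. Genes outside this rule are marked as such where they appear. A few genes that the rule names are not reported here. Windows upstream of start sites came from RefSeq on GRCh38.p14 and gene positions from GENCODE release 29. The fits were tested on simulated data. Figures were drawn with matplotlib 3.10.9 in Python 3.11.15.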

Additional observations from a re-analysis of the deposited data

How the results depend on the processing

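Of the alternatives for differences of the receptors and factors between lines, 179 kept direction and side of the threshold, 15 lost the call and 3 gained it. The lost calls were between BT549 and Hs578T, those of FOXA1 and TP63 with a pseudocount of 0.1 (adjusted p = 0.0625 and 0.0936), with voom for FOXA1 (adjusted p = 0.0529), and with single siCtrl libraries left out (adjusted p from 0.0554 to 0.113), and those of ESR1 and TP63 in siASAP1 libraries without the first of BT549 (adjusted p = 0.0695 and 0.0629). The gained calls were those of ESR1 between SUM149PT and Hs578T (3.68) and XBP1 between BT549 and Hs578T (-2.59, and -2.84 without the first BT549 siASAP1 library) in siASAP1 libraries. After siASAP1, 218 alternatives kept theirs and 15 reversed, in differences that never passed. FOXA1 in SUM149PT was -0.046 with TMM scaling and ranged from -0.90 to 0.78 with single libraries left out. FOXA1 over 3 lines was 0.066 with library totals and 0.37 with voom, and ranged from -0.32 to 0.18 with single libraries left out. ESR1 over 3 lines ranged likewise from -0.10 to 0.32, and XBP1 in Hs578T from -0.11 to 0.44.

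Counts over all probes were 1866 for SUM149PT against BT549, 2076 for SUM149PT against Hs578T and 1421 for BT549 against Hs578T (adjusted p), 674, 264 and 963 after siASAP1 in BT549, Hs578T and SUM149PT (limits of the study), 182 over 3 lines and 1 for the interaction. In siASAP1 libraries without the first of BT549, added after the data were seen, 2308 probes passed between BT549 and Hs578T. After siASAP1 in Hs578T the count was 430 without a filter, 142 with a minimum of 50 and 435 with the replicate block. In SUM149PT it was 351 with the replicate block and 1560 in a fit of 18 libraries. Over 3 lines it was 111 without a filter and 34 with the replicate block. The interaction gave 19 without a filter, 2 with a minimum of 50, 22 with a pseudocount of 0.1, 2 with voom and 0 with the replicate block. With each library left out the counts were 1313 to 3453, 1362 to 3200, 906 to 1405, 325 to 2169, 158 to 634, 501 to 2325, 99 to 206 and 1 to 26 in the order above. The highest for SUM149PT lines, SUM149PT silencing and the interaction came without the library labelled SUM149PT siCtrl replicate 2, and that for BT549 without its first siASAP1 library. The cause of these changes was not tested. The replicate numbers were not used as pairs in the main fits. The deviations of siASAP1 and siCtrl libraries with the same number correlated at -0.35 to 0.11 in BT549 and -0.65 to -0.32 in SUM149PT. In Hs578T they correlated at 0.099 to 0.35, so that not every pair was over 0.1. For siCtrl libraries of different lines with the same number the range was -0.13 to 0.41. So few pairs cannot show whether libraries with the same number shared a batch. The block changed no call of a receptor or factor.

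Scaling by library totals moved the median of all probes from -0.04 to -0.20 for SUM149PT against BT549, from 0.01 to 0.21 for BT549 against Hs578T and from 0.09 to 0.30 after siASAP1 in SUM149PT. The share of calls that were higher went from 48.1% to 70.5% in Hs578T, from 55.1% to 73.9% in SUM149PT and from 39.0% to 60.4% over 3 lines. With 3 libraries a group and few reads, differences of PGR, GATA3, FOXC1, ELF5 and SOX10 were mostly not detectable at this depth.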
